A study of Mus musculus with 37 samples.

Results

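Teneurins, neuroligins and neurexins are cell-surface proteins through which neurons recognise their partners and build synapses. Their transcripts were followed here in 9 genes, found by symbol in each of the 4 deposited tables of 24411 genes: the teneurins Tenm1, Tenm2, Tenm3 and Tenm4, the neuroligins Nlgn1, Nlgn2 and Nlgn3, and the neurexins Nrxn2 and Nrxn3. All 9 passed the filter on low values in every table. Neurexins sit mainly on the presynaptic membrane and bind neuroligins on the postsynaptic side. Teneurins bind latrophilins across the cleft, and FLRT proteins also bind latrophilins. Teneurins take part in matching axons to targets, among them hippocampal circuits. Nlgn1 is known mostly from excitatory synapses and Nlgn2 from inhibitory ones, while Nlgn3 is found at both kinds.

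Polyadenylated RNA was sequenced in 37 libraries of mouse neurons, in 4 experiments aimed at Tet2, an enzyme that oxidises 5-methylcytosine in DNA. Hippocampal neuronal nuclei of C57/Bl6 mice were either labelled WT (n = 4), which the series text describes as Tet2fl/fl, or carried CamKIIaCreERT2 with Tet2fl/fl (cKO, n = 3). The floxed allele was thus shared by both groups, and the CamKIIa promoter drives Cre mainly in excitatory forebrain neurons, whereas the nuclei held markers of other neurons as well. The first knockdown compared cultures of C57/Bl6 primary neurons taken at E17 and given lentivirus, labelled either shLuciferase (n = 6) or shTet2 (n = 6). The second knockdown compared in vitro primary neurons labelled shLuc (n = 6) or Tet2 KD (n = 6). Column names of both these groups carry the label 3d, which they do not explain. The overexpression experiment compared in vitro primary neurons labelled synGFP (n = 3) or Tet2 OE (n = 3). Strain and culture age of the last pair of experiments, the age and tamoxifen treatment of the mice, and whether libraries came from separate animals or cultures were not given in the sources used here. The p-values therefore measure the spread between these libraries, which may be technical.

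Levels are normalized counts, that is, reads divided by the library's size factor. Reads per library came to 6377244 to 14882249 in the nuclei, 2709421 to 43788798 in the first knockdown, 4785087 to 22781534 in the second, and 16988077 to 73220675 in the overexpression experiment. There depth differed between the groups without overlap, at 16988077 to 48321564 reads in synGFP and 66684922 to 73220675 in Tet2 OE libraries. Genes with a read numbered 18540 to 21194 in synGFP and 16457 to 18371 in Tet2 OE libraries. Depth and group cannot be told apart in that experiment, and the part of depth in its results was not tested. Within a group, the lowest likeness was found with synGFP and Tet2 OE (Spearman correlation across genes 0.799 to 0.868) and the highest in the second knockdown (0.973 to 0.989). Tet2 itself was 986 ± 73.9 (SD, n = 4) in WT and 639 ± 201 (n = 3) in cKO nuclei, with every cKO library below every WT library (exact two-sided permutation p = 0.0286, the smallest this design allows; limma adjusted p = 0.632). The cKO libraries 3, 4 and 9 held Tet2 at 484, 566 and 866, so library 9 lay just under the lowest WT library, at 893. In the first knockdown Tet2 was 461 ± 190 (n = 6) in shLuciferase libraries and 504 ± 149 (n = 6) in libraries labelled shTet2 (exact permutation p = 0.667), so the deposited values did not show the knockdown in the libraries labelled shTet2. Tet2 fell in the second knockdown from 459 ± 74.7 to 175 ± 87.6 (n = 6 each, exact permutation p = 0.00216). The Tet2 OE libraries, at 3823 ± 1538, all lay above the synGFP libraries, at 1724 ± 774 (n = 3 each, exact permutation p = 0.1, the smallest this design allows; limma adjusted p = 0.116). Neuronal markers were high in every library, and microglial markers were low. The cultures of the overexpression experiment also held astrocyte markers at a summed level of 42500 to 130000, against 54700 to 113000 for the neuronal markers. Knockdown cultures held astrocyte markers too. Their sums were 9420 to 17900 in the first knockdown, against 25000 to 35400 for neuronal markers. In the second they were 4550 to 7700, against 31300 to 51600.

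The 9 genes lie on 7 chromosomes and differ greatly in size. On build mm10 (GRCm38, GENCODE annotation), Nlgn2 spans 14.7 kb on chromosome 11 (69823122 to 69837784, minus strand) and Nlgn3 spans 26.8 kb on chromosome X (101299168 to 101325963, plus strand). The other 7 genes span from 125.4 kb (Nrxn2, chromosome 19, 6418731 to 6544169, plus strand) to 1612.1 kb (Nrxn3, chromosome 12, 88722876 to 90334935, plus strand). Tenm3 occupies 616.3 kb of chromosome 8 (48227682 to 48843951, minus strand) and Nlgn1 occupies 906.2 kb of chromosome 3 (25426215 to 26332460, minus strand). The longest coding transcripts run from 5.57 kb (Nlgn2) to 13.17 kb (Tenm4). Several of the genes contain or meet annotated genes on the opposite strand. Those with values in the tables, such as Gm15412 within Tenm4 (mean 0.39 to 87.4), Slc22a12 within Nrxn2 (2.61 to 10.4) and Sh2d1a at the end of Tenm1 (0.22 to 11.6), were far below their partner. The strand setting of the counting is not given in the sources used here, so reads of such pairs cannot be told apart.

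RefSeq promoter windows (GRCm38.p6) were found for 7 of the 9 genes, the missing entries being Nlgn3 and Nrxn2. Only for Nlgn2 and Tenm4 did a window lie just outside the annotated gene, and these are shown because Nlgn2 was lower in both knockdowns while Tenm4 was not called in any experiment by limma before the correction for transcript length. The windows of the other genes, and a second window of Tenm4 with 8 CG (chr7:96211421-96211670), lie within the gene's span, before starts inside it. Capitals mark the dinucleotide CG, the context in which most DNA methylation occurs. The stretches are Nlgn2 at chr11:69837785-69838034 (minus strand) and Tenm4 at chr7:96170994-96171243 (plus strand), written 5′ to 3′ in the direction of transcription.
Nlgn2: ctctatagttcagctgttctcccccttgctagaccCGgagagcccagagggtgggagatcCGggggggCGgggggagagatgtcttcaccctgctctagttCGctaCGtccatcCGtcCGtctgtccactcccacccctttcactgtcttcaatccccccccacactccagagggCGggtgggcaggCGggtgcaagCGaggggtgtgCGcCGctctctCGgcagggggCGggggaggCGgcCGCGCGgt
Tenm4: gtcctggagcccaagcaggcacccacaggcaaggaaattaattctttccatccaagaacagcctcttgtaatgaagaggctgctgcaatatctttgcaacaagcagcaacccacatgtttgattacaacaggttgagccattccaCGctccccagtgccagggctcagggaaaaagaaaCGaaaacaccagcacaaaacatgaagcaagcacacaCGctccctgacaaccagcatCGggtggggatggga
The Nlgn2 stretch of 250 bases held 18 CG at a G+C content of 67.6%, and 21.7% of the 32851 RefSeq windows cut to the same length held as many. The Tenm4 stretch held 4 CG at 50.8% G+C, a number reached by 62.2% of windows. The median window held 6 CG. Methylation was not measured in these libraries.

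**Figure D1:**
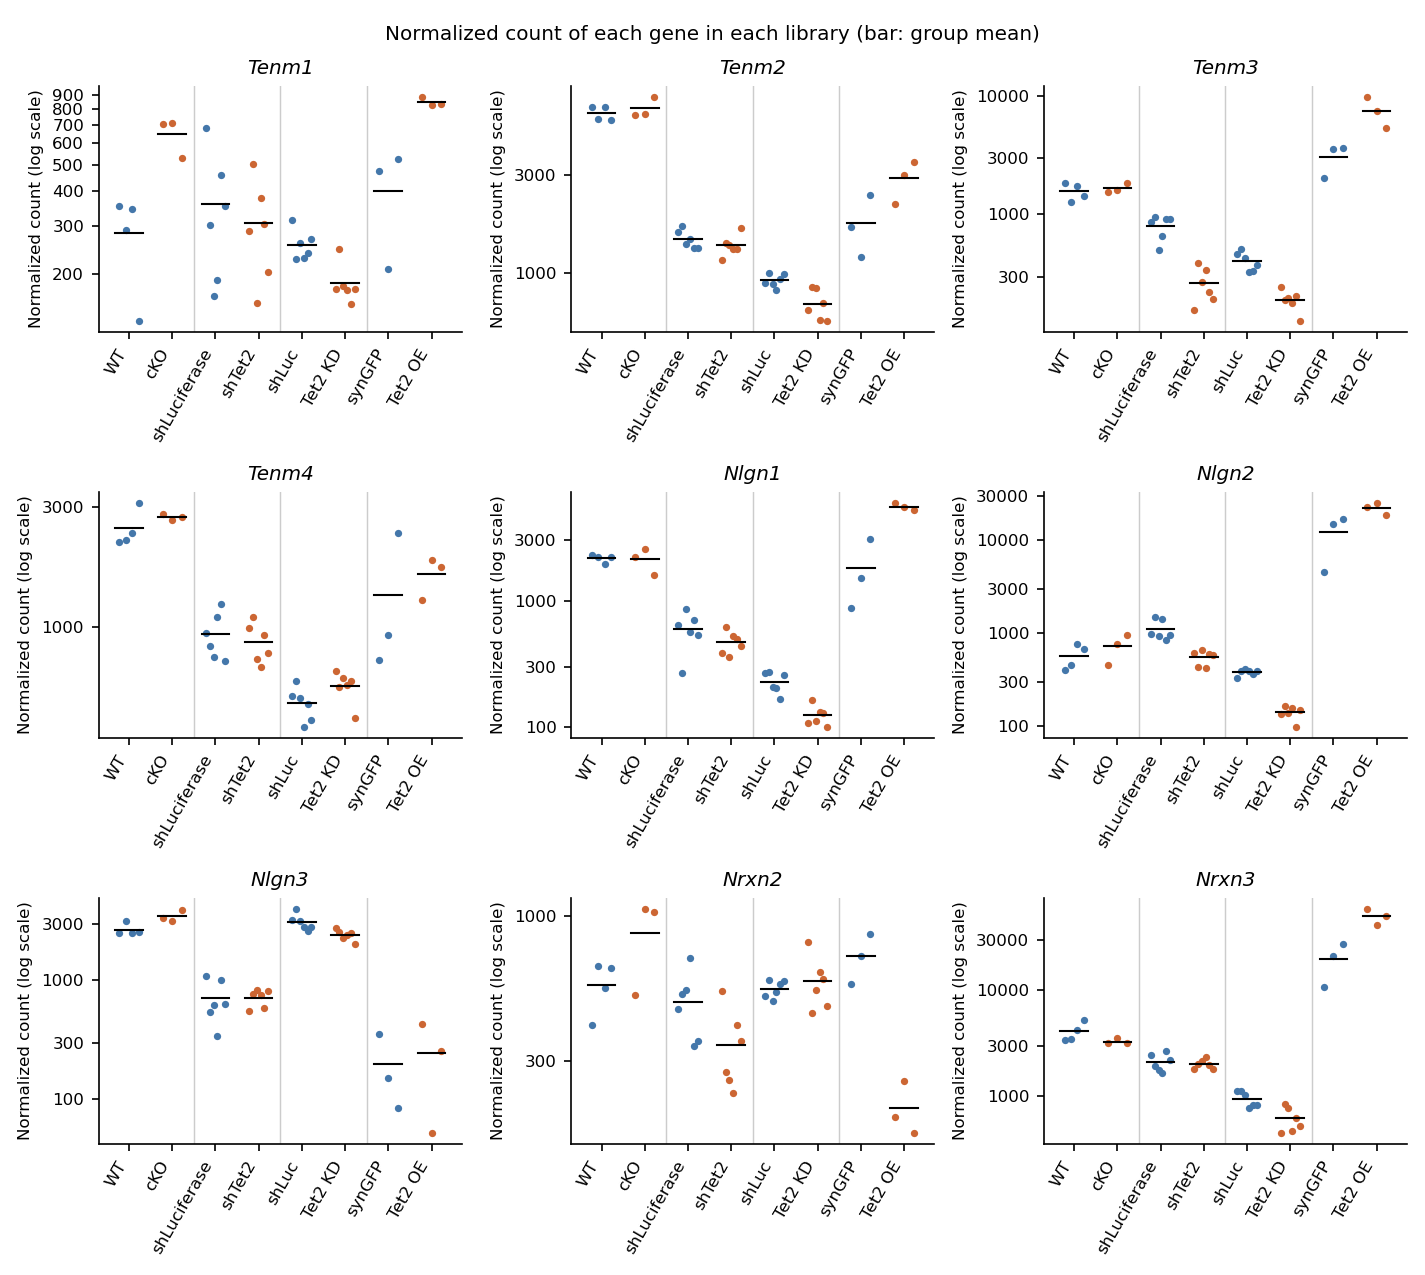
Normalized count (log axis) of each gene in each of the 37 libraries, by group; each point is 1 library, the bar is the group mean, blue marks controls and orange the group in which Tet2 was targeted. Tenm3 and Nlgn2 are lower without overlap in both knockdowns. The 4 tables were normalized separately, so heights compare only within a pair of groups.

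Among the teneurins, Tenm3 fell in both knockdowns, and it was the member with the largest fall in the first. In shLuciferase cultures it ranged from 500.3 to 950 normalized counts (median 889) and in libraries labelled shTet2 from 157 to 387 (median 247). All 6 libraries labelled shTet2 lay below all 6 controls, with means of 800.4 ± 180.0 and 262 ± 88.3 (SD, n = 6 each). The log2 fold change was -1.64 (SE 0.23, limma adjusted p = 0.000423). The second knockdown gave Tenm3 values from 329 to 508 in shLuc cultures (median 402) and from 127 to 243 in Tet2 KD cultures (median 195). These groups did not overlap either, and the log2 fold change was -1.09 (SE 0.15, adjusted p = 3.34e-05).

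The other teneurins showed no such fall in the first knockdown, where their log2 fold changes were -0.17 (Tenm1), -0.10 (Tenm2) and -0.09 (Tenm4), with adjusted p of 0.735 to 0.838. In the second knockdown Tenm1 and Tenm2 fell by smaller amounts than Tenm3. Tenm1 ranged from 228 to 316 in shLuc cultures (median 249.0) and from 156 to 247 in Tet2 KD cultures (median 176), which is -0.47 on the log2 scale (SE 0.14, adjusted p = 0.0138). Tenm2 ranged from 826 to 1004 (median 918) and from 588 to 854 (median 692), which is -0.39 on the log2 scale (SE 0.11, adjusted p = 0.0136). For both genes the highest Tet2 KD libraries reached into the range of the controls. Tenm4 had a median of 509.5 in shLuc and 598 in Tet2 KD cultures, ranges of 402 to 611 and 434 to 671, and its difference of 0.23 (SE 0.12) did not pass the test (adjusted p = 0.193).

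Among the neuroligins, Nlgn2, which organises inhibitory postsynapses with gephyrin, fell in both knockdowns. In the first knockdown it ranged from 837 to 1476 in shLuciferase cultures (median 966) and from 421 to 655 in libraries labelled shTet2 (median 587). The log2 fold change was -0.99 (SE 0.18, adjusted p = 0.00456), with no overlap between 1097 ± 272 and 548 ± 99.7 (n = 6 each). In the second knockdown the shLuc libraries held 332 to 415 (median 390) and the Tet2 KD libraries 97.6 to 165 (median 142). This was the largest fall among the 9 genes in that experiment, from a mean of 380 ± 29.7 to 139 ± 23.3 (n = 6 each). On the log2 scale it came to -1.46 (SE 0.13, adjusted p = 2.41e-07), and the groups did not overlap.

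Nlgn1, the neuroligin of excitatory synapses, was called lower in the second knockdown, where it ranged from 165 to 272 in shLuc cultures (median 232) and from 100.2 to 163 in Tet2 KD cultures (median 120). The groups met without overlapping, and the log2 fold change was -0.88 (SE 0.16, adjusted p = 0.000416). In the first knockdown it was 593 ± 198 and 470 ± 96.9 (n = 6 each), and the difference of -0.27 (SE 0.24) did not pass the test (adjusted p = 0.614). Nlgn3 was the most abundant neuroligin per kilobase in the second knockdown. It ranged from 2619 to 3983 in shLuc (median 2992) and from 2021 to 2778 in Tet2 KD cultures (median 2460), overlapping ranges that differed by -0.35 on the log2 scale (SE 0.11, adjusted p = 0.0225). That call was lost without shLuc library 2 or without Tet2 KD library 12 (log2 fold change -0.27 to -0.39 over the 12 libraries left out in turn). In the first knockdown Nlgn3 was 709 ± 289 and 717 ± 120, a difference of 0.10 (SE 0.23, adjusted p = 0.857).

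Of the neurexins, Nrxn3 was called lower in the second knockdown and Nrxn2 was not. Nrxn3 ranged from 776 to 1114 in shLuc cultures (median 937) and from 453 to 856 in Tet2 KD cultures (median 576), a fall of -0.65 on the log2 scale (SE 0.15, adjusted p = 0.0043) in which some libraries of both groups shared a range. Nrxn2 ranged from 491 to 587 (median 549) and from 446 to 805 (median 565), and its difference of 0.06 did not pass the test (adjusted p = 0.766). In the first knockdown Nrxn2 was 486 ± 135 and 341 ± 115 (n = 6 each), a difference of -0.53 (SE 0.24, adjusted p = 0.317), and Nrxn3 differed by -0.06 (adjusted p = 0.863).

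Counted together, 2 of the 9 genes were called lower in the first knockdown and none higher, where limma called 1.93% of the 18315 genes tested, 1.28% lower and 0.655% higher. For the second knockdown 7 of 9 were called lower and none higher, against 25.9% of 16164 genes called, 13.2% lower and 12.6% higher. Tenm3 and Nlgn2 were called lower in both knockdowns, as were 186 of the 15796 genes tested in both (1.18%). The ranges of the groups did not overlap for 2 of 9 genes in the first knockdown, all lower (1.39% of all genes), and for 3 of 9 in the second, all lower (6.53% of all genes). The median log2 fold change of the 9 genes was -0.17 in the first knockdown and -0.47 in the second, against 0.09 and -0.02 over all genes tested. The difference between the knockdowns was fitted in limma over both tables together, and 0 the 9 genes passed, while 1.83% of 15796 genes did. Without adjustment 3 of the 9 genes had a p under 0.05 in that test, beside 2603 of all 15796 genes. These were Nrxn3 (a further -0.59 in the second knockdown, SE 0.21, adjusted p = 0.16), Nrxn2 (0.59, SE 0.27, adjusted p = 0.275) and Nlgn2 (-0.47, SE 0.23, adjusted p = 0.303). The 95% intervals of the difference were wide, for Tenm3 from -0.05 to 1.14 and for Nlgn1 from -1.23 to 0.02, so the calls made in 1 knockdown alone are not shown to be particular to it.

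**Figure D2:**
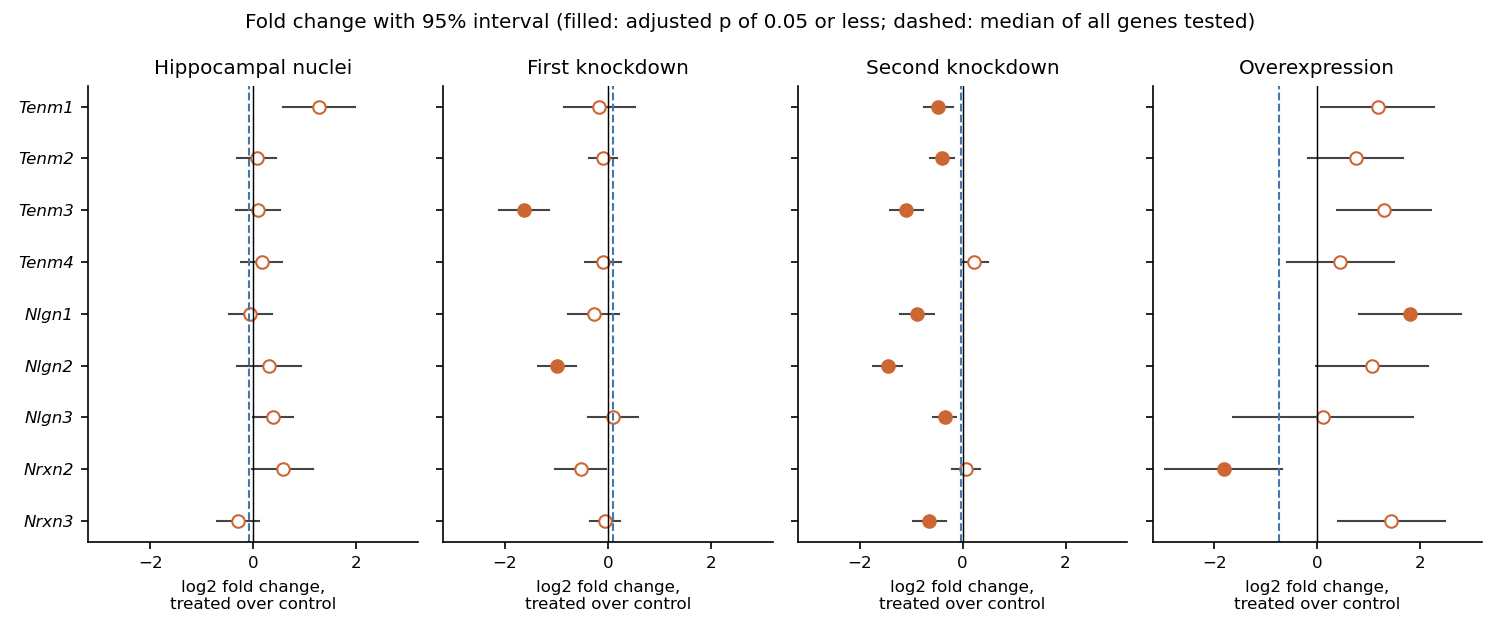
Log2 fold change of the group in which Tet2 was targeted over its control, with its 95% interval, for the 9 genes in the 4 experiments; filled points passed an adjusted p of 0.05 and the dashed line is the median of all genes tested. Tenm3 (-1.64 and -1.09) and Nlgn2 (-0.99 and -1.46) are filled in both knockdowns. In the overexpression experiment 8 of 9 points lie above 0 with wide intervals, where 35.6% of all genes tested lay above 0.

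Other measured features moved with the knockdown groups. Vascular and meningeal markers (5 genes) summed to 362 to 652 in shLuciferase cultures and 123 to 215 in libraries labelled shTet2, and to 165 to 277 in shLuc and 76.2 to 149 in Tet2 KD cultures. Dcn, a matrix proteoglycan of fibroblasts, led that list and was called lower in both (log2 fold changes -1.39 and -1.14). Neuronal markers (5 genes) summed to 27100 to 35400 and 25000 to 32000 in the first knockdown and to 41900 to 51600 and 31300 to 39300 in the second. Tubb3 was called lower in both (-0.67 and -0.44), and in the second its means of 30500 and 22500 made up most of the sum. There Snap25 (-0.58) was also called lower, and Map2 (-0.31), Rbfox3 (0.39) and Syt1 (-0.04) were not called. Excitatory markers (4 genes) overlapped in the first knockdown (8780 to 15200 and 10300 to 14900) and fell without overlap in the second, from 8930 to 10400 to 5960 to 8810. There Camk2a (-0.36) and Neurod6 (-0.54) were called lower and Slc17a7 (0.69) higher. Of the inhibitory markers, Gad2 (0.44) and Slc32a1 (0.71) were called higher while Nlgn2 was lower. Gad1 (-0.4) and Sst (0.13) were not called, so the inhibitory markers did not rise as a group. No marker on these lists was at 0 in all libraries, and the part of these shifts in the results was not tested. In bulk libraries, fewer cells of a type and less RNA per cell cannot be told apart.

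Transcript length moved with the fold change too. The 9 transcripts are long, and in the second knockdown the median log2 fold change of the 2339 genes with transcripts in the same range of length was -0.16, against -0.02 for all genes. With the trend over length removed, Nlgn2, Tenm3, Nlgn1 and Nrxn3 remained called lower. Tenm1 (-0.29, adjusted p = 0.0753), Tenm2 (-0.21, adjusted p = 0.0966) and Nlgn3 (-0.18, adjusted p = 0.138) were no longer called. Tenm4 was then called higher (0.41, adjusted p = 0.00665). This correction called 27.2% of all genes in the second knockdown, and 2.21% in the first, where the calls of Tenm3 and Nlgn2 remained.

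In hippocampal nuclei none of the 9 genes passed the test, and neither did any of the 18780 genes tested (0.0% by limma, with 1309 genes at an unadjusted p under 0.05, 1 gene or 0.00532% called by edgeR and 96 or 0.481% by DESeq2). Of the 9 genes, 1 had an unadjusted limma p under 0.05, and 0 were called by edgeR or DESeq2. Tenm1, the least abundant teneurin, was 354, 291, 347 and 135 in the WT libraries and 706, 707 and 531 in the cKO libraries. All 3 cKO libraries lay above all 4 WT libraries, and the log2 fold change was 1.28 (SE 0.33, adjusted p = 0.529). In the authors' deposited table the adjusted p of Tenm1 was 0.065. Nlgn3 was 2508, 3157, 2510 and 2561 in WT and 3365, 3186 and 3911 in cKO nuclei, again without overlap, and its difference was 0.38 (SE 0.19, adjusted p = 0.728). For these 2 of 9 genes the cKO libraries lay wholly above WT, which held for 3.55% of all genes.

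Tenm3 and Nlgn2, the genes that fell in both knockdowns, were not called in the nuclei. Tenm3 was 1826, 1271, 1724 and 1417 in WT and 1534, 1600.2 and 1823 in cKO nuclei, a difference of 0.09 with a 95% interval of -0.33 to 0.52. Nlgn2 was 399, 456, 766 and 671 in WT and 454, 756 and 943 in cKO nuclei, a difference of 0.31 with an interval of -0.31 to 0.93. Nrxn2 was 403, 659, 547 and 646 in WT and 518, 1055 and 1029 in cKO nuclei (0.57, SE 0.28, adjusted p = 0.728). The 2 highest Nrxn2 values were both of cKO libraries. Nrxn3 was 3386, 3488, 4245 and 5260 in WT and 3157, 3531 and 3176 in cKO nuclei (-0.30, SE 0.20, adjusted p = 0.805). Tenm2, Tenm4 and Nlgn1 differed by 0.07, 0.17 and -0.06 (adjusted p 0.852 to 0.949). The nuclei held oligodendrocyte markers at a summed level of 3660 to 8080 although labelled neuronal, and excitatory markers at 13700 to 17900 in WT and 12900 to 14000 in cKO.

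With Tet2 OE, 8 of 9 genes had a positive fold change, as did 35.6% of all genes tested. Nlgn1 and Nrxn2 passed the test in opposite directions. Nlgn1 was 874, 1507 and 3050 in the synGFP libraries and 5900.2, 5517 and 5209 in the Tet2 OE libraries. The groups did not overlap, the synGFP libraries spread widely, and the log2 fold change was 1.80 (SE 0.47, adjusted p = 0.0222). Nrxn2 was 568, 714 and 860 in synGFP and 188, 253 and 165 in Tet2 OE, again without overlap, at -1.82 on the log2 scale (SE 0.54, adjusted p = 0.0408). Thus 1 gene was called higher and 1 lower, where 9.96% of the 22399 genes tested were called, 6.19% higher and 3.77% lower. Of the 6 fits that leave out a library, Nlgn1 was called only in that without synGFP library 6 (range 1.37 to 2.27), and Nrxn2 in none (-1.99 to -1.67). Nrxn2 was also not called with TMM factors (adjusted p = 0.0689) or by edgeR (0.0828).

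Nrxn3, the most abundant of the 9 per kilobase in these cultures, was 10762, 20976 and 27101 in synGFP and 58311, 41107 and 50581 in Tet2 OE libraries. Its Tet2 OE libraries all lay above synGFP, and the difference of 1.44 (SE 0.49) did not pass the test (adjusted p = 0.0727). Nrxn3 was called by DESeq2 (adjusted p = 0.0207), with library totals (log2 fold change 0.73, adjusted p = 0.0163) and without synGFP library 6 (0.0404), and in the authors' deposited table its adjusted p was 0.0212. Tenm3 was 2008, 3528 and 3634 in synGFP and 9680.03, 7375 and 5319 in Tet2 OE libraries, also without overlap (1.29, SE 0.43, adjusted p = 0.0672). Tenm3 was called by DESeq2, edgeR and limma with TMM factors (adjusted p 0.0269, 0.045 and 0.0486), which called 18.3%, 10.9% and 9.92% of all genes, and in the authors' deposited table its adjusted p was 0.0275. Nlgn2 was 4527, 15174 and 17146 in synGFP and 22814, 25232 and 18849 in Tet2 OE (1.07, SE 0.52, adjusted p = 0.186). Its lowest value, in synGFP library 4, stood far under the other synGFP libraries, and that library was also the lowest of its group for Tenm3, Tenm4, Nlgn1, Nrxn2 and Nrxn3. Tenm1 was 474, 209 and 526 in synGFP and 881, 826 and 834 in Tet2 OE (1.18, adjusted p = 0.153). Tet2 OE libraries lay wholly above synGFP for 5 of 9 genes and wholly below for 1, against 12.5% and 19.0% of all genes. Tenm2, Tenm4 and Nlgn3 overlapped between the groups (0.74, 0.44 and 0.11, adjusted p 0.275 to 0.943).

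The scale of the overexpression experiment was unsettled. Over all genes tested the median log2 fold change was -0.75, and over the 9 genes it was 1.07. With TMM factors the medians were -0.58 over all genes and 1.26 over the 9, and with library totals -1.31 and 0.36. The share of calls that were higher was 62.2% as normalized by the authors, 71.0% with TMM factors and 32.3% with library totals. With library totals Tenm4 and Nlgn3 changed sign (-0.27 and -0.60), and the other 7 genes kept their direction under both scalings. The 2631 genes with transcripts of similar length had a median of 0.24, and with the trend over length removed Nlgn1 was no longer called (0.89, adjusted p = 0.183), Tenm2, Tenm4 and Nlgn3 changed sign, and Nrxn2 stayed called (8.12% of all genes were). Among the markers, Gad1 and Gad2 were higher with Tet2 OE (1.88 and 2.25), Slc32a1 and Sst were lower (-2.72 and -3.79), and Aqp4 was the 1 astrocyte marker of 5 that was called (3.31), the others differing by -1.64 (Gfap), -1.04 (Aldh1l1), -0.09 (Slc1a3) and -0.07 (Gja1). The part of these shifts in the results was not tested.

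**Figure D3:**
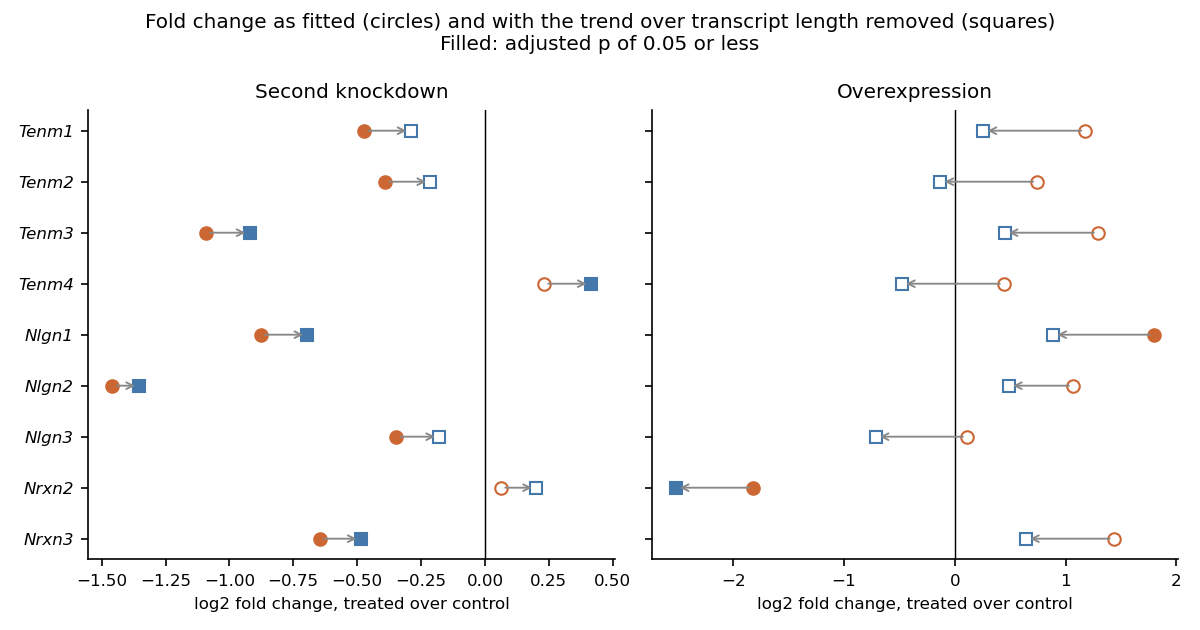
Log2 fold change of each gene as fitted (orange circles) and after removing the trend over transcript length (blue squares), for the second knockdown and for overexpression; filled symbols passed an adjusted p of 0.05. In the second knockdown Nlgn2, Tenm3, Nlgn1 and Nrxn3 stay filled, and in the overexpression experiment only Nrxn2 does.

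Levels per kilobase of the longest coding transcript placed the 9 genes in a different order in each setting. In WT nuclei Tenm2 (601 ± 47.2 per kb) and Nrxn3 (517 ± 109) led with overlapping ranges, followed by Nlgn3 (314 ± 37.1). Tenm4, Nlgn1 and Tenm3 (187, 183 and 174) did not separate from each other, nor did Nlgn2 and Nrxn2 (103 and 84.6), and Tenm1 was lowest (21.9 ± 7.89). In shLuciferase cultures Nrxn3 (268 ± 49.7), Nlgn2 (197 ± 48.8) and Tenm2 (148 ± 15.3) led, each overlapping the next and apart from the rest, and Tenm3, Nlgn3, Nrxn2, Tenm4, Nlgn1 and Tenm1 followed at 89.3, 83.0, 72.9, 71.0, 50.2 and 27.9 with overlapping neighbours. The shLuc cultures were led by Nlgn3 (363 ± 57.0), apart from all others, before Nrxn3 (120 ± 19.3), Tenm2 (93.2), Nrxn2 (81.8) and Nlgn2 (68.3), which overlapped in sequence. Tenm3 and Tenm4 (45.4 and 37.8) and then Tenm1 and Nlgn1 (19.9 and 19.3) closed the order in overlapping pairs. In synGFP cultures Nrxn3 (2480 ± 1040) and Nlgn2 (2210 ± 1220) overlapped and stood apart from Tenm3 (341 ± 102), Tenm2 (176), Nlgn1 (153), Nrxn2 (107) and Tenm4 (102), and Tenm1 (31.3) and Nlgn3 (23.0) were lowest. Nlgn3 thus ranked first of the 9 in shLuc cultures, and in synGFP cultures it shared the lowest place with Tenm1, whose range it overlapped; both cultures are labelled in vitro primary neurons. These orders compare genes within a table, and no test was made across tables.

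**Figure D4:**
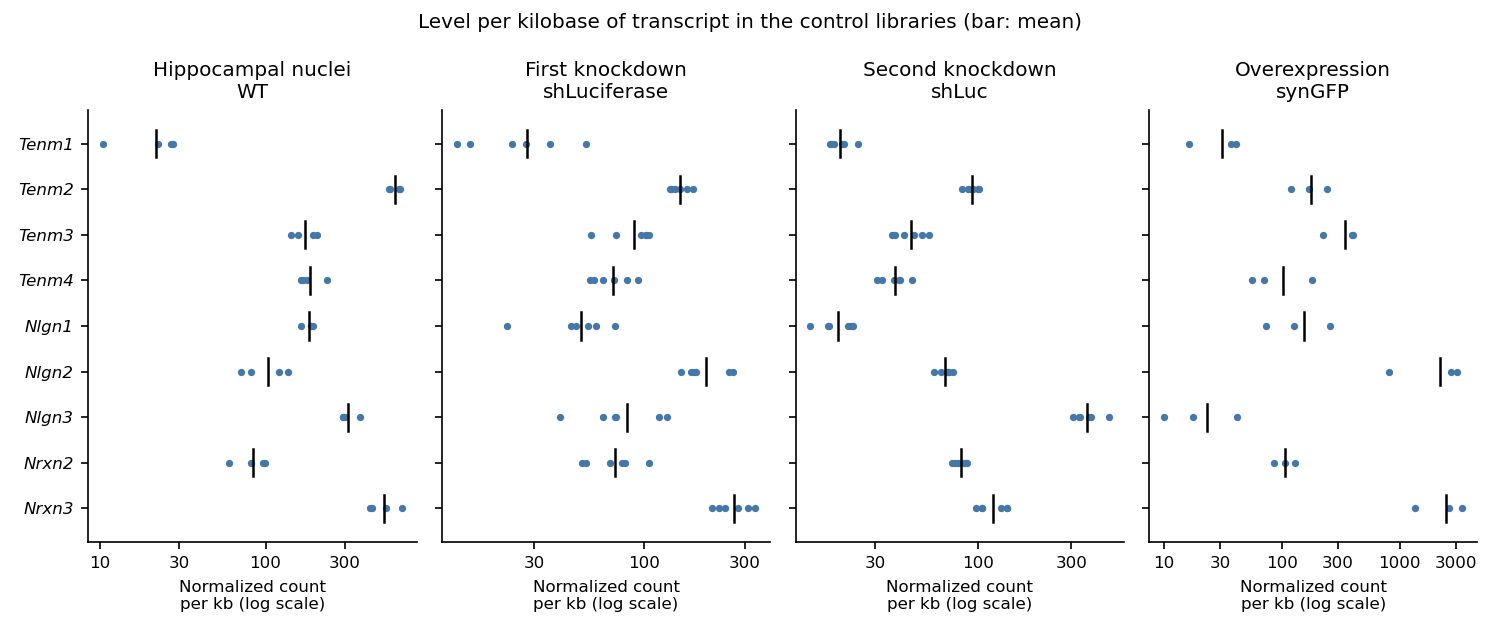
Normalized count per kb of transcript (log axis) of each gene in the control libraries of each experiment; points are libraries and bars are means. Nlgn3 is the highest gene in shLuc cultures (363) and in synGFP cultures (23.0) overlaps Tenm1 at the bottom, while Nrxn3 is first or second in all 4.

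The binding partners and regulators of these proteins were read from lists of 44 genes, of which 42 were matched and tested. None of the 42 was called in the nuclei or in the first knockdown by limma. At an unadjusted limma p under 0.05 were 5 in the nuclei and 7 in the first knockdown. Over all genes these numbers were 1309 of 18780 and 2609 of 18315. Here edgeR called 0 in each, beside 1 and 378 of all genes. In the nuclei DESeq2 called 1, Iqsec3 (limma log2 fold change -0.99), beside 96 of 19956 genes. In the first knockdown DESeq2 called 3, beside 889 of 20521 genes. These were Dag1, Lin7b and Khdrbs2 (limma log2 fold changes -0.595, -0.67 and 0.998). Of the 42, 6 were called higher and 12 lower in the second knockdown, where 12.6% of all genes were called higher and 13.2% lower. For overexpression 11 were called higher and 2 lower, against 6.19% and 3.77% of all genes. The median log2 fold change of the 42 was -0.21 in the second knockdown and 0.77 in the overexpression experiment, where the medians of all genes were -0.02 and -0.75.

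The list of teneurin partners held latrophilins and the FLRT proteins that bind latrophilins. Of its 6 genes, 2 were called lower in the second knockdown (13.2% of all genes were). The latrophilin Adgrl2 fell from 216 ± 56.9 to 88.2 ± 22.9 (log2 fold change -1.27, adjusted p = 9.43e-05). Flrt3 fell from 627 ± 88.8 to 367 ± 86.3 (-0.79, adjusted p = 0.000504). Both were lower without overlap in 6 against 6 libraries. In the overexpression experiment 4 of the 6 were called higher (6.19% of all genes were), among them Adgrl2 (727 ± 215 to 8496 ± 5263, 3.29, adjusted p = 0.00084), Adgrl1 (2.33) and Flrt1 (1.81).

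Neurexin ligands other than neuroligins went in both directions. Of 16 tested, 4 were called lower and 2 higher in the second knockdown, beside 13.2% and 12.6% of all genes, with Dag1, the dystroglycan precursor (-0.66, adjusted p = 0.00459), and the leucine-rich repeat protein Lrrtm3 (-0.54, adjusted p = 0.0159) lower and the cerebellin Cbln4 (0.51, adjusted p = 0.0185) higher. The Cbln4 call was lost without Tet2 KD library 10 (adjusted p = 0.0509). In the overexpression experiment 5 were called higher and 2 lower, beside 6.19% and 3.77% of all genes, among them the calsyntenin Clstn2 (2.43), C1ql3 (2.52) and Lrrtm1 (1.67), none of which was called with library totals.

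Of 4 genes whose proteins restrain or cut neuroligins, 2 were called lower and 1 higher in the second knockdown, where 25.9% of all genes were called. Mdga1, which blocks neuroligins from binding neurexins, fell from 116 ± 29.4 to 58.5 ± 9.55 (-0.96, adjusted p = 0.000996), and the shedding protease Adam10 fell from 125 ± 40.5 to 58.8 ± 24.3 (-1.11, adjusted p = 0.00489). The related Mdga2 was higher (0.47, adjusted p = 0.0338) and lost its call without shLuc library 1, 3, 7 or 8, without Tet2 KD library 10 or 11 (adjusted p 0.0532 to 0.0784) and with library totals (0.0521). Bace1, another shedding protease, differed by -0.29 (adjusted p = 0.267). Among 13 genes of scaffold proteins, 3 were called lower and 2 higher, beside 13.2% and 12.6% of all genes. The adaptor Lin7c fell from 136 ± 9.36 to 65.1 ± 11.2 (-1.06, adjusted p = 6.39e-05), and Cask, which binds the neurexin tail, fell by 0.47 on the log2 scale (adjusted p = 0.00585; 0.056 with the trend over length removed). Iqsec3, a protein of inhibitory postsynapses, rose from 365 ± 57.8 to 638 ± 146 (0.79, adjusted p = 0.000322). Of the 3 regulators of neurexin splicing, Khdrbs2 was higher (0.47, adjusted p = 0.0129) and Khdrbs3 lower (-0.38, adjusted p = 0.0325); the Khdrbs3 call was lost in 6 of the 12 fits that leave out a library, without shLuc library 1, 3, 8 or 9 or without Tet2 KD library 4 or 12. With Tet2 OE, Mdga2 (1.45) and Lin7a (1.61) were called higher.

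Of the partner genes named for Tet2 OE, Adgrl2 was called in all 6 fits that leave out a library. Leaving out synGFP library 5 ended the other calls (Adgrl1, Flrt1, Clstn2, C1ql3, Lrrtm1, Mdga2 and Lin7a, adjusted p 0.062 to 0.134). Those of Adgrl1, Mdga2 and Lin7a also ended without any 1 of the 3 Tet2 OE libraries, those of Flrt1 and Lrrtm1 without Tet2 OE library 3 or 6, and that of C1ql3 without library 4 or 6. With the trend over length removed, Flrt1 (adjusted p = 0.0957) and Mdga2 (0.367) were not called. Mdga2 was also not called with library totals (log2 fold change 0.74, adjusted p = 0.215).

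Likeness between genes was described over the 37 libraries by the Pearson correlation of log2 values centred and scaled within each experiment, among 11813 genes. Libraries of a group share their treatment, so these values include the differences between groups, and no test was made. Among the 9 genes, Tenm3 and Nlgn2 were the most alike (r = 0.707), and with group means removed their correlation was 0.154. Nrxn2 and Nrxn3 were the least alike (r = -0.493), and theirs was -0.448 with group means removed. The gene most like Nlgn2 was Pip5k1c, a lipid kinase that makes phosphatidylinositol bisphosphate (r = 0.922; the next gene reached 0.839). For Tenm3 it was Osbpl1a, a lipid-binding protein (0.827), for Nlgn1 Cacna2d1, an auxiliary subunit of calcium channels (0.819), and for Nrxn2 Shisa4 (0.802). For Tenm1 it was Ncan, the proteoglycan neurocan (0.787), for Nrxn3 the ubiquitin ligase Nedd4l (0.781), for Nlgn3 Aplp2 (0.716), for Tenm2 the ephrin Efna5 (0.703) and for Tenm4 the active-zone protein Erc1 (0.628).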

How the data were processed

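The authors deposited 1 table per experiment, with a normalized count per library (a signal), the log2 fold change and its standard error, a Wald score, and a p-value and adjusted p-value, per the file headers. STAR, RSEM and DESeq2 on build mm10 are named in the submitters' processing notes, with no versions. Per the labels' protocols, libraries were polyA-enriched and strand-specific. Each deposited signal was a whole number of reads times 1 step per library (tolerance 0.01), from which depth was recovered. Columns of the second knockdown and the overexpression experiment carry other numbers than the sample titles, so they were matched to groups only, and libraries are named by column number.

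Values were tested as log2(value + 1) with limma 3.58.1 (trend; R 4.3.3), 2-sided, for genes with a mean of 0.5 or more, with Benjamini-Hochberg adjustment over all genes tested and calls at 0.05. Changes of genes with few reads come out too small on this scale. Only libraries of 1 experiment entered a fit, except for the difference between the knockdowns, which used both knockdown tables. Alternatives were pseudocounts of 0.5 and 5, other filters, TMM factors, library totals without the ribosomal RNA gene Rn45s, removal of the trend over transcript length (95.8% of genes had a length), edgeR 4.0.16 and DESeq2 1.42.0 on the recovered reads (100% whole), and leaving out each library. The fits were checked on simulated data. Members, gene lists, marker lists and tests were chosen with earlier results of these data known. Partner genes were named as up to 3 called genes per list with the smallest p in each experiment; Ca10 and Ca11 had no row under those symbols and were not used. A marker of inhibitory neurons, and the summed level of that list, are not reported here.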

Additional observations from a re-analysis of the deposited data

Results flagged for a closer look

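Of 45 groups of 4 to 10 libraries examined, 2 held a library that stood apart from the rest by Dixon's criterion, where chance gives about 1 in 20. In WT nuclei, library 2 held Nlgn3 at 3157 normalized counts and the others at 2508 to 2561. In the second knockdown, Tet2 KD library 5 held Tenm1 at 247.3 and the others at 156 to 180.5. Without that library the Tenm1 difference remained called.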

How the results depend on the processing

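The fall of Tenm3 and Nlgn2 in both knockdowns kept its direction and its call under every alternative run. Calls over all genes moved with the tool: in the nuclei edgeR called 1 and DESeq2 96 against 0, in the first knockdown DESeq2 called 889 against 354, and in the overexpression experiment DESeq2 called 4087 against 2230 and 4 of the 9 genes, while removing the trend over length left 1. Signs reversed for Nlgn1 in the nuclei (0.11 with the length trend removed), for Nlgn3 (-0.019 by edgeR) and Nrxn3 (0.037, length) in the first knockdown, and with Tet2 OE for Tenm2 (-0.13), Tenm4 (-0.48) and Nlgn3 (-0.72) with the length trend removed and for Tenm4 (-0.27) and Nlgn3 (-0.60) with library totals; none of these had been called. The cause was not tested. Leaving out 1 library at a time gave 0 to 0 members and 0 to 0 genes called in the nuclei, 2 to 2 members and 222 to 354 genes in the first knockdown, 6 to 7 members and 3529 to 4678 genes in the second, 0 to 2 members and 642 to 3004 genes in the overexpression experiment, and 0 to 0 members and 148 to 436 genes for the difference between knockdowns. The counts moved by over 1.5 times without shLuciferase library 3 (222) or shTet2 library 4 (234) in the first knockdown, without synGFP library 4 or 5 (1482, 642) or Tet2 OE library 3, 4 or 6 (1443, 1254, 1229), and, for the difference, without shLuc library 1 (180) or Tet2 KD library 4, 5 or 10 (148, 436, 181). It also reversed uncalled signs of Tenm2 (lowest -0.022, highest 0.122) and Nlgn1 (-0.20 to 0.13) in the nuclei, of Tenm1 (-0.354 to 0.051), Nlgn3 (-0.085 to 0.253), Nrxn3 (-0.12 to 0.01) and Tet2 (-0.059 to 0.361) in the first knockdown, of Nrxn2 (-0.038 to 0.133) in the second and of Nlgn3 (-0.51 to 0.99) with Tet2 OE.

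With the replicate number as a block, 206 genes were called in the first knockdown, Tenm3 and Nlgn2 among them; same-numbered libraries did not deviate together (0 of 6 pairs correlated above 0.1, and 1 of 6 libraries correlated best with its own number). In the other experiments no analysis paired by replicate number was possible, because the columns of the other culture experiments do not carry the title numbers and the nuclei groups share none. An alternative chosen after seeing the data took column numbers 1 to 6 and 7 to 12 of the second knockdown as 2 sets (shLuc libraries 1 to 3 held Nrxn3 at 1037 to 1114 and libraries 7 to 9 at 776 to 836); with the set as a term, the same 7 members and 4268 genes were called. Depth limits the lowest values: Tenm1 rested on 56 reads in the thinnest library labelled shTet2.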
